A study of Mus musculus with 16 samples.

Results

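Extracellular and membrane inhibitors of Wnt signaling were followed in definitive endoderm (DE) cultures with and without the LIM homeodomain transcription factor Lhx1. The set holds 9 genes, Shisa2, Sfrp1, Sfrp5, Frzb, Dkk1, Apcdd1, Notum, Axin2 and Znrf3, taken by symbol from the platform annotation, which gives them 15 of the 45281 probes on the array. Of the 15 probes, 11 were above background on at least 4 of the 16 arrays (detection p under 0.01, the fraction of negative controls that reach the brightness of the probe), and they represent 8 of the 10939 genes tested. The only probe for Znrf3 was not above background on any array, so Znrf3 was not tested. Axin2 belongs with these genes as a feedback inhibitor, but its protein is cytoplasmic, so "secreted and membrane" describes the other 8.

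Mouse ES cells were differentiated with Activin-A, and the methods add EGF. Null cultures (Lhx1∆/∆) were set against wild-type cultures (Lhx1+/+) at day 5 and again at day 6, with 4 cultures in each of the 4 groups. ES cell lines of both genotypes came from blastocysts of a heterozygous intercross, so all groups share that origin and treatment, and the null cells lack Lhx1 from the ES cell stage onwards. The methods describe 4 independent null lines, but the labels tie no replicate number to a line, so cultures of one line may appear at both days. The numbers used for null day 6 replicates 3 and 4 are those of the titles, since the descriptions call both of them replicate 2.

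Wnt proteins bind Frizzled receptors with the coreceptors Lrp5 and Lrp6 and stabilize β-catenin, which activates targets through TCF/LEF factors. Antagonists act at each step, by binding Wnts outside the cell, by blocking or retaining receptors, by inactivating the ligand or by promoting degradation of β-catenin. In the gastrulating mouse embryo, anterior endoderm and mesendoderm secrete Wnt antagonists that protect the forebrain territory, whereas several inhibitors are themselves induced by Wnt signaling and act as negative feedback.

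Promoters were read for the members the RefSeq promoter table lists, 5 of 9 (Shisa2, Sfrp5, Frzb, Dkk1 and Axin2). The windows of Shisa2, the member with the lowest adjusted p, of Axin2, the feedback gene above background on all 16 arrays, and of Frzb and Dkk1, the members holding a TCF/LEF core, are shown as the 250 bases before the start site, 5′ to 3′ on the gene's strand (RefSeq, GRCm38.p6). Capitals mark a core CTTTGA or CTTTGT on either strand.
Shisa2, chr14:59625031-59625280, plus strand: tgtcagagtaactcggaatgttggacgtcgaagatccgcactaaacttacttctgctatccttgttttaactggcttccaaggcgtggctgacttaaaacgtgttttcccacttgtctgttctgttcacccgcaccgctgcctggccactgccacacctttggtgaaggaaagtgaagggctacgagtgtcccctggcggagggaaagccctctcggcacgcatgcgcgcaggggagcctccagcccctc
Axin2, chr11:108920099-108920348, plus strand: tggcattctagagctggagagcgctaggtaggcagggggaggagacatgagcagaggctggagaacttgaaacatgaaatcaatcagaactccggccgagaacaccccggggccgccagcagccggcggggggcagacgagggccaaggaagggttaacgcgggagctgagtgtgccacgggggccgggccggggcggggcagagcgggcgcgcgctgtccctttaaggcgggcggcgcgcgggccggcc
Frzb, chr2:80447397-80447646, minus strand: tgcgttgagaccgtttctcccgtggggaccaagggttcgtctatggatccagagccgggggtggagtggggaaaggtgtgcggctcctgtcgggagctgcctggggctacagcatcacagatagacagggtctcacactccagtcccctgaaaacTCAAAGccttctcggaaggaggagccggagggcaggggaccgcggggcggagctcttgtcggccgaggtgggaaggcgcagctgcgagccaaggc
Dkk1, chr19:30549497-30549746, minus strand: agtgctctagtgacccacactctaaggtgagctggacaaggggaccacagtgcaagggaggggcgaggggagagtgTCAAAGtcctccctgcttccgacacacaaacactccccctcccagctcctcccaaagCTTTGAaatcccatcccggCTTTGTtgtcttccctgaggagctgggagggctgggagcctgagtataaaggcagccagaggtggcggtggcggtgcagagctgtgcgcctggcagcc

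The Dkk1 window held 3 cores, CTTTGA on the opposite strand starting 174 bases before the start site and, on the gene's strand, CTTTGA at 117 and CTTTGT at 98 bases. The Frzb window held 1 core, CTTTGA on the opposite strand at 95 bases. The Shisa2, Sfrp5 and Axin2 windows held neither form. Searched on both strands, the 2 cores cannot overlap each other on a strand, and 27.6% of all 32851 windows of this length held at least 1 of them. The homeodomain core TAAT was in none of the 5 windows, against 54.9% of all windows. CpG dinucleotides numbered 24 in the Axin2 window, 16 in Frzb, 14 in Shisa2, 13 in Sfrp5 and 6 in Dkk1, and the median over all windows was 6. A match is only a run of letters, and no binding was measured here.

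Each array had between 10734 and 15453 probes above background, with overlapping ranges in the 4 groups. Replicate 3 had the fewest in each group, 10734 in null and 11207 in wild-type cultures at day 5, and 12194 and 11979 in null and wild-type cultures at day 6. The effect of this on which readings count as above background was not tested. The 2 probes for Lhx1 itself read 7.70 to 14.49 on the log2 scale in null cultures and 13.79 to 14.88 in wild-type cultures. Their position relative to the deleted part of the gene is not given in the sources used here, so they do not check the labels. Null day 5 replicate 4 and null day 6 replicate 2 had the lowest Lhx1 values (probe ILMN_1225672, 8.15 and 9.76) and also the lowest summed DE markers, and the calls are given with and without both cultures.

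Shisa2 and Sfrp1 were strongly reduced in null cultures at both days, while Apcdd1 was raised at day 6. By limma with Benjamini-Hochberg adjustment over all 10939 genes, 2 of the 8 tested members were lower at day 5, where 0.558% of all genes were called in either direction and 0.494% were called lower. At day 6, 3 of 8 were called, against 1.57% of all genes. Of these, Shisa2 and Sfrp1 were lower (0.996% of all genes) and Apcdd1 was higher (0.576% of all genes). Both reduced genes were called at both days, as were 0.329% of all genes in the same direction. The log2 fold change, null over wild-type, was negative for 5 of 8 members and positive for 3 of 8 at either day, whereas 52.0% of all genes were positive at day 5 and 50.6% at day 6. The median of the 8 members was -0.77 at day 5 and -0.72 at day 6, against 0.01 and 0.00 over all genes. At an unadjusted p under 0.05, 6 of 8 members passed at either day, where 11.9% of all genes passed at day 5 and 13.9% at day 6. The members were chosen with earlier results of these data known, so the shares over all genes give scale only and do not measure an enrichment.

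**Figure D1:**
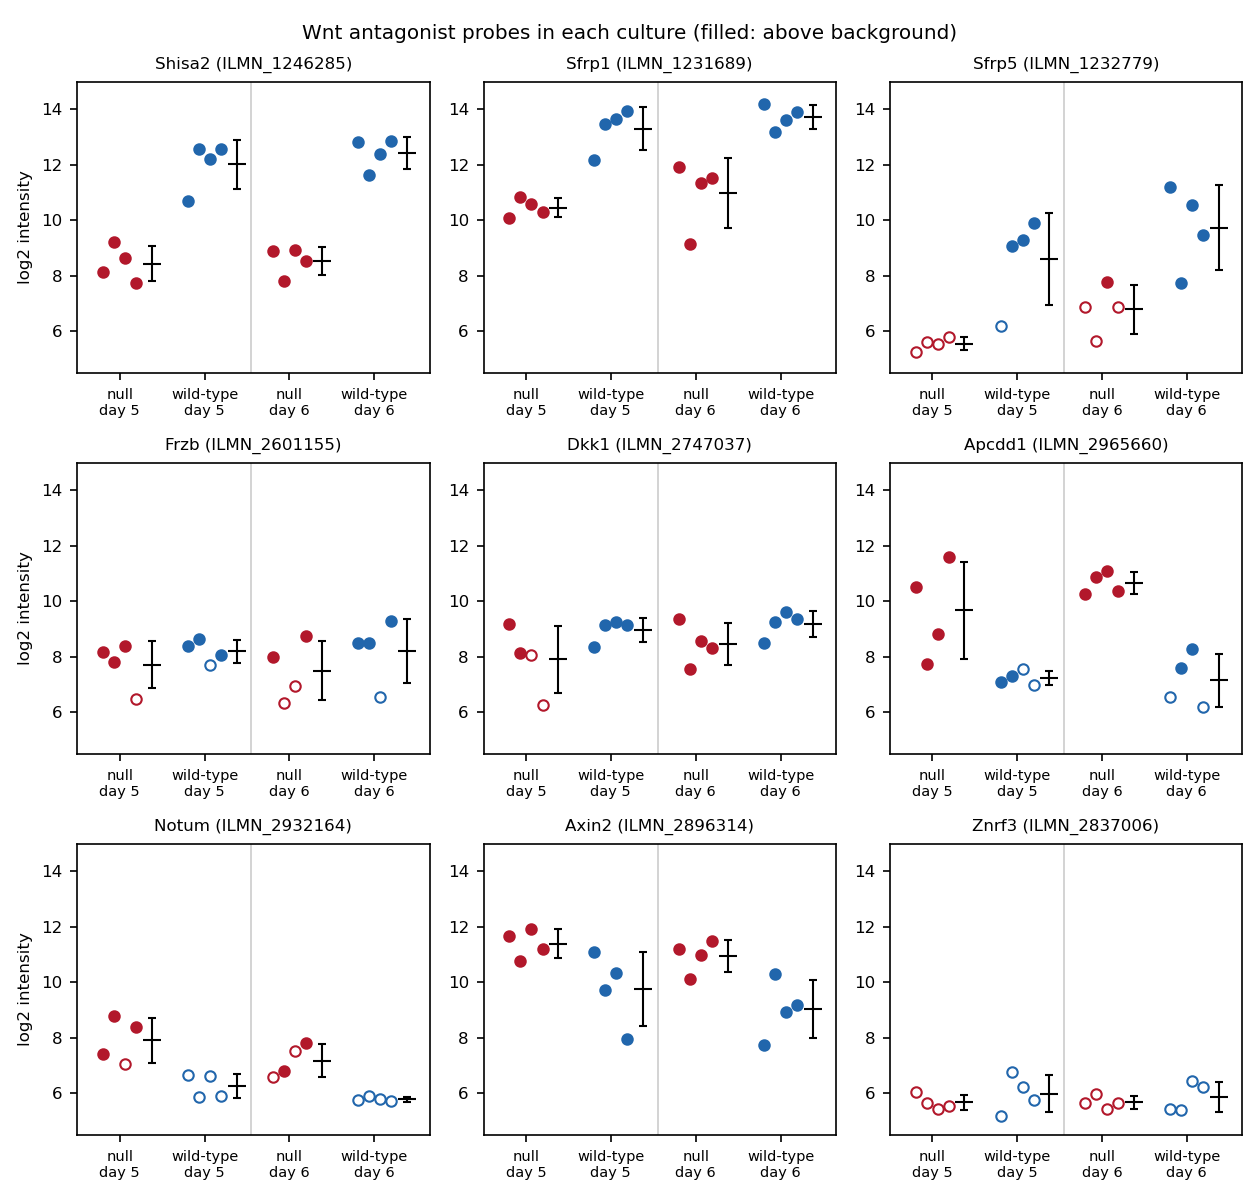
Log2 intensity (y axis) of the brightest probe of each of the 9 genes in 16 cultures, with null (red) left of wild-type (blue) at each day. Each point is 1 culture, filled where above background, and black bars give the group mean and SD (n = 4); Shisa2 and Sfrp1 separate the genotypes at both days, Frzb and Dkk1 overlap, and all Znrf3 points are open.

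Shisa2 had the lowest adjusted p of the set at both days. Proteins of this family, described first in Xenopus, hold immature Frizzled and FGF receptors in the endoplasmic reticulum, so that cells respond less to both signals. At day 5, Shisa2 log2 intensity (probe ILMN_1246285) was 8.14, 9.23, 8.64 and 7.74 in null cultures, against 10.69, 12.55, 12.23 and 12.58 in wild-type cultures. At day 6 it was 8.88, 7.81, 8.94 and 8.53 in null cultures, against 12.81, 11.64, 12.38 and 12.86 in wild-type cultures. Every null culture was below every wild-type culture of its day, and all 16 arrays were above background. The group means were 8.44 ± 0.64 in null and 12.01 ± 0.89 in wild-type cultures at day 5 (SD, n = 4 each), and 8.54 ± 0.52 and 12.42 ± 0.56 in null and wild-type cultures at day 6. The log2 fold change was -3.57 ± 0.44 (SE) at day 5, an 11.9-fold higher level in wild-type, with an adjusted p of 0.00316. At day 6 it was -3.89 ± 0.44, a 14.8-fold higher level in wild-type, with an adjusted p of 0.00327. On the deposited rank-invariant intensities the log2 fold change was smaller, -2.89 at day 5 and -3.23 at day 6, and without background correction it was -2.99 at day 5.

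A second Shisa2 probe, ILMN_2824801, was dim. It was above background in none of the 8 null cultures, in 1 of 4 wild-type cultures at day 5 and in 3 of 4 at day 6. It did not pass in the fit of 15593 probes (adjusted p of 0.581 at day 5 and 0.0716 at day 6), where 0.410% of probes were called at day 5 and 1.24% at day 6. With all null readings at background, it allows no exact fold.

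The SFRP members are soluble Frizzled-related proteins, which carry a Frizzled-like cysteine-rich domain and bind Wnts outside the cell. Sfrp1 was well above background in all 16 cultures. At day 5, Sfrp1 (probe ILMN_1231689) read 10.08, 10.85, 10.58 and 10.28 in null cultures, against 12.16, 13.49, 13.64 and 13.93 in wild-type cultures. At day 6 it read 11.92, 9.15, 11.34 and 11.54 in null cultures, against 14.19, 13.18, 13.63 and 13.89 in wild-type cultures. The genotypes did not overlap at either day, and null replicate 2 was the lowest culture at day 6. The log2 fold change of -2.86 ± 0.52 at day 5 was a 7.25-fold higher level in wild-type (adjusted p = 0.0280), and that of -2.74 ± 0.52 at day 6 a 6.66-fold higher level (adjusted p = 0.0160). Without null day 6 replicate 2 the day 6 value was -2.12 (adjusted p = 0.0145). The second probe, ILMN_2604282, gave -3.13 ± 0.49 at day 5 (adjusted p = 0.0140 over all probes) and -2.84 ± 0.49 at day 6 (0.0133). The Sfrp1 call at day 5 was lost with the replicate number as a block (adjusted p = 0.0573), and without wild-type day 5 replicate 2, 3 or 4 or null day 5 replicate 1 or 4 (adjusted p = 0.106, 0.104, 0.118, 0.0928 and 0.0659). At day 6 it was lost without wild-type day 6 replicate 1 or 4 (adjusted p = 0.0698 and 0.0626), without the 2 null day 6 cultures of conflicting labels (0.0934) and with day 6 fitted alone (0.0622).

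Sfrp5 was a wild-type signal that was close to background in null cultures. At day 5 its probe ILMN_1232779 read 5.27, 5.63, 5.53 and 5.81 in null cultures, none above background, against 6.19, 9.08, 9.29 and 9.90 in wild-type cultures, of which replicate 1 was not above background. The day 6 values were 6.88, 5.65, 7.78 and 6.87 in null cultures, against 11.21, 7.74, 10.55 and 9.46 in wild-type cultures. Null replicate 3, the only null culture above background, just exceeded wild-type replicate 2, so the genotypes overlapped at day 6. At day 5 all null readings and that of wild-type replicate 1 were at background and have no order. Set against the background level, Sfrp5 was at least 2.55-fold higher in wild-type cultures at day 5 (adjusted p = 0.0981). At day 6 the log2 fold change was -2.95 ± 0.79 with an adjusted p of 0.0789. Sfrp5 passed the threshold at both days without wild-type day 5 replicate 1 (adjusted p = 0.0112 and 0.0286). For day 6 it also passed when wild-type day 6 replicate 2 was left out (0.0190) and with the replicate block within each day (0.0423). With array weights, where 1153 of all genes were called at day 6, it passed as well (0.00757). On the deposited rank-invariant intensities its day 6 value was -1.79.

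Frzb, the third of these Wnt-binding proteins, did not pass the test. At day 5 it read 8.17, 7.83, 8.39 and 6.48 in null cultures, against 8.39, 8.65, 7.69 and 8.08 in wild-type cultures. At day 6 the values were 7.99, 6.35, 6.94 and 8.73 in null cultures and 8.50, 8.49, 6.56 and 9.30 in wild-type cultures. The genotypes overlapped at both days. At day 5, 3 of 4 null and 3 of 4 wild-type cultures were above background for Frzb. At day 6, 2 of 4 null and 3 of 4 wild-type cultures were. The log2 fold change of Frzb was -0.48 at day 5 (95% interval -1.77 to 0.80, adjusted p = 0.823). At day 6 it was -0.71 (95% interval -1.99 to 0.57, adjusted p = 0.692). Both intervals include no difference and also reductions of more than 2-fold.

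Dkk1, which binds Lrp5 and Lrp6 and is needed for head formation in the mouse, also did not pass the test. At day 5 it read 9.17, 8.15, 8.06 and 6.27 in null cultures, against 8.35, 9.14, 9.26 and 9.13 in wild-type cultures. By day 6 the values were 9.37, 7.54, 8.58 and 8.32 in null cultures, against 8.51, 9.25, 9.61 and 9.35 in wild-type cultures. At both days null replicate 1 was the highest null culture and wild-type replicate 1 the lowest wild-type culture, and the genotypes overlapped. The log2 fold change was -1.06 at day 5 (95% interval -2.15 to 0.03, adjusted p = 0.434) and -0.73 at day 6 (-1.82 to 0.36, adjusted p = 0.594). The intervals hold both no difference and a reduction of more than 2-fold. Only 2 of 4 null cultures were above background at day 5, and replicates 3 and 4 were not. The day 5 value was -0.51 without null day 5 replicate 4 and -1.48 without null day 5 replicate 1.

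The remaining members are known as Wnt-induced feedback inhibitors in several tissues. Apcdd1, a membrane glycoprotein that in human cells binds Wnts and Lrp5, was the member with the highest positive log2 fold change. At day 5, probe ILMN_2965660 read 10.53, 7.74, 8.81 and 11.61 in null cultures, against 7.10, 7.31, 7.57 and 6.99 in wild-type cultures. At day 6 it read 10.28, 10.88, 11.09 and 10.38 in null cultures, against 6.56, 7.60, 8.27 and 6.18 in wild-type cultures. The genotypes did not overlap at either day, but null cultures spread over 3.87 log2 units at day 5 and over 0.81 at day 6. All 8 null cultures were above background, as were 2 of 4 wild-type cultures at each day. The log2 fold change was 2.43 ± 0.66 at day 5 (5.38-fold, adjusted p = 0.125), and at day 6 it was 3.50 ± 0.66 (11.4-fold, adjusted p = 0.0160). The day 5 value was 1.78 without null day 5 replicate 4 and 3.07 without null day 5 replicate 2. On the deposited rank-invariant intensities it was 1.62 at day 5 and 2.33 at day 6, and without background correction 1.67 and 2.39.

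Both other Apcdd1 probes were above background on fewer arrays. Probe ILMN_1216474 was above background in 2 of 4 null cultures at day 5, replicates 1 and 4, in all 4 at day 6, and in none of the 8 wild-type cultures. Probe ILMN_2726030 was above background only in null day 5 replicates 1 and 4, and in no null culture at day 6. In the probe-level fit, ILMN_1216474 did not pass at day 5 (adjusted p = 0.145) or at day 6 (0.0920), and its wild-type readings, all at background, allow no exact fold. The Apcdd1 call at day 6 was lost without wild-type day 6 replicate 1 or 4 or null day 6 replicate 3 (adjusted p = 0.0698, 0.0719 and 0.0593), without the 2 null day 6 cultures of conflicting labels (0.146) and with the replicate block (0.0527). At day 5 it passed only without null day 5 replicate 2 (adjusted p = 0.0417).

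Notum, a secreted carboxylesterase that removes the lipid from Wnt proteins, was detected only in null cultures. At day 5 probe ILMN_2932164 read 7.40, 8.78, 7.08 and 8.39 in null cultures, against 6.65, 5.88, 6.62 and 5.92 in wild-type cultures. The day 6 values were 6.57, 6.81, 7.53 and 7.82 in null cultures, against 5.75, 5.91, 5.79 and 5.71 in wild-type cultures. The probe was above background in 3 of 4 null cultures at day 5, in 2 of 4 at day 6 and in none of the 8 wild-type cultures. Every null reading exceeded the wild-type readings of its day, but readings at background have no order. Against the background level, Notum in null cultures exceeded that in wild-type cultures at day 5 by at least 1.39-fold, with an adjusted p of 0.0554. At day 6 the adjusted p was 0.0725, and the null mean of 7.18 was too near background for a bound on the fold, against a wild-type mean of 5.79. The 2 further Notum probes were not above background on any array. Notum passed at day 5 without wild-type day 5 replicate 1 (adjusted p = 0.0416) or null day 5 replicate 3 (0.0266).

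Axin2, a scaffold of the β-catenin destruction complex and a widely used Wnt target, was above background on all arrays. At day 5 it read 11.66, 10.77, 11.93 and 11.19 in null cultures, against 11.08, 9.72, 10.32 and 7.96 in wild-type cultures. By day 6 the values were 11.20, 10.14, 10.99 and 11.48 in null cultures, against 7.73, 10.28, 8.94 and 9.17 in wild-type cultures. The genotypes overlapped at each day through 1 wild-type culture, replicate 1 at day 5 and replicate 2 at day 6. The spread was wider in wild-type, with SDs of 0.51 in null and 1.33 in wild-type cultures at day 5, and of 0.58 and 1.05 in null and wild-type cultures at day 6. The log2 fold change of 1.62 ± 0.61 at day 5 had an adjusted p of 0.280, that of 1.92 ± 0.61 at day 6 one of 0.137, and neither passed the test. The day 5 value was 1.02 without wild-type day 5 replicate 4.

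Znrf3, a membrane ubiquitin ligase that removes Frizzled receptors from the cell surface, read 5.42 to 6.06 in null cultures and 5.19 to 6.76 in wild-type cultures, not above background on any array. No difference can be given for it. Of Apcdd1, Notum and Axin2, 1 was called higher, Apcdd1 at day 6, where 0.576% of all genes were, and none was at day 5. In the gene lists used here Apcdd1 stood with Shisa2 and Dkk1, both of negative log2 fold change, among receptor-level antagonists. Of the listed enzyme and feedback inhibitors, Notum and Axin2 were tested, and 0 of 2 were called higher at either day.

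**Figure D2:**
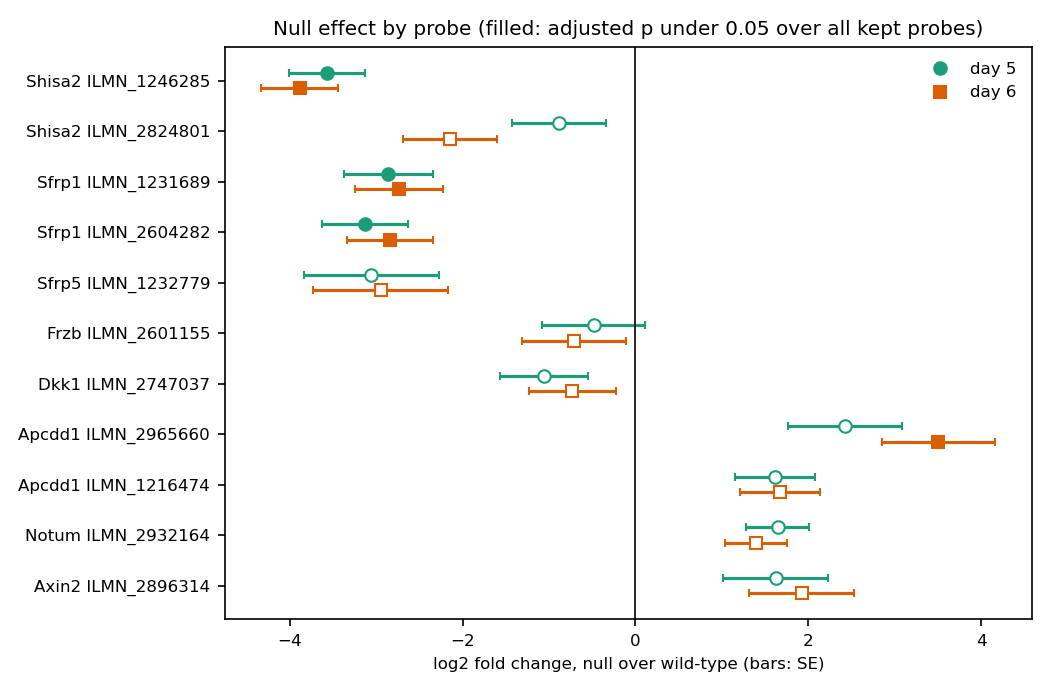
Log2 fold change, null over wild-type (x axis), of the 11 antagonist probes above background on at least 4 arrays, at day 5 (circles) and day 6 (squares), with SE bars and filled symbols for adjusted p under 0.05 over all 15593 probes; values of Sfrp5 at day 5, Notum, Shisa2 ILMN_2824801 and Apcdd1 ILMN_1216474 are set against a group at background and are not exact. Shisa2, Sfrp1, Sfrp5, Frzb and Dkk1 lie left of 0 and Apcdd1, Notum and Axin2 right of it, and the filled symbols belong to 1 Shisa2 probe, both Sfrp1 probes and, at day 6, 1 Apcdd1 probe.

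The counts of members whose genotypes did not overlap were larger than the counts of calls. At day 5, Shisa2, Sfrp1 and Sfrp5 lay wholly lower in null cultures (3.43% of all genes did) and Apcdd1 and Notum wholly higher (2.08% of all genes). At day 6, Shisa2 and Sfrp1 lay wholly lower (5.67% of all genes) and Apcdd1 and Notum wholly higher (3.46% of all genes). Frzb, Dkk1 and Axin2 overlapped at both days. The counts for Sfrp5 and Notum rank readings that were not above background in either genotype.

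No difference in the null effect between the days was called for any member. The interaction called 0 of 8 members and 0% of all genes in limma, and 0 of 8 members had an unadjusted p under 0.05, where 106 of the 10939 genes did. The interaction estimate was highest for Apcdd1, at 1.08 ± 0.94 on the log2 scale (95% interval -0.92 to 3.08). Day 6 against day 5 also called 0 of 8 members, with 0% of all genes called in null cultures and 0% in wild-type cultures. At an unadjusted p under 0.05, 0 of 8 members passed in either genotype, against 445 genes in null and 133 in wild-type cultures. In the order of measured group means, wild-type day 6 and wild-type day 5 were the 2 highest for Shisa2, Sfrp1 and Sfrp5, and both null groups were the 2 highest for Apcdd1, Notum and Axin2, and within these pairs the days were not separated by the test.

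Cultures of 1 group differed in ways that members shared. Among wild-type cultures, replicate 1 at day 5 had the lowest Shisa2, Sfrp1, Sfrp5 and Dkk1 and the highest Axin2 of its group, and replicate 2 at day 6 had the lowest Shisa2, Sfrp1 and Sfrp5 and the highest Axin2. Wild-type day 6 replicate 1 had the highest Sfrp1 and Sfrp5 and the lowest Axin2, but also the lowest Dkk1 of its group. Among null cultures, day 5 replicate 4 had the lowest Shisa2, Frzb and Dkk1 and the highest Apcdd1, and day 6 replicate 2 had the lowest Shisa2, Sfrp1, Sfrp5, Frzb, Dkk1 and Axin2. These are descriptions of single cultures of 4, with no test. Without these 2 null cultures the same members were called, 2 at day 5 and 3 at day 6.

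**Figure D3:**
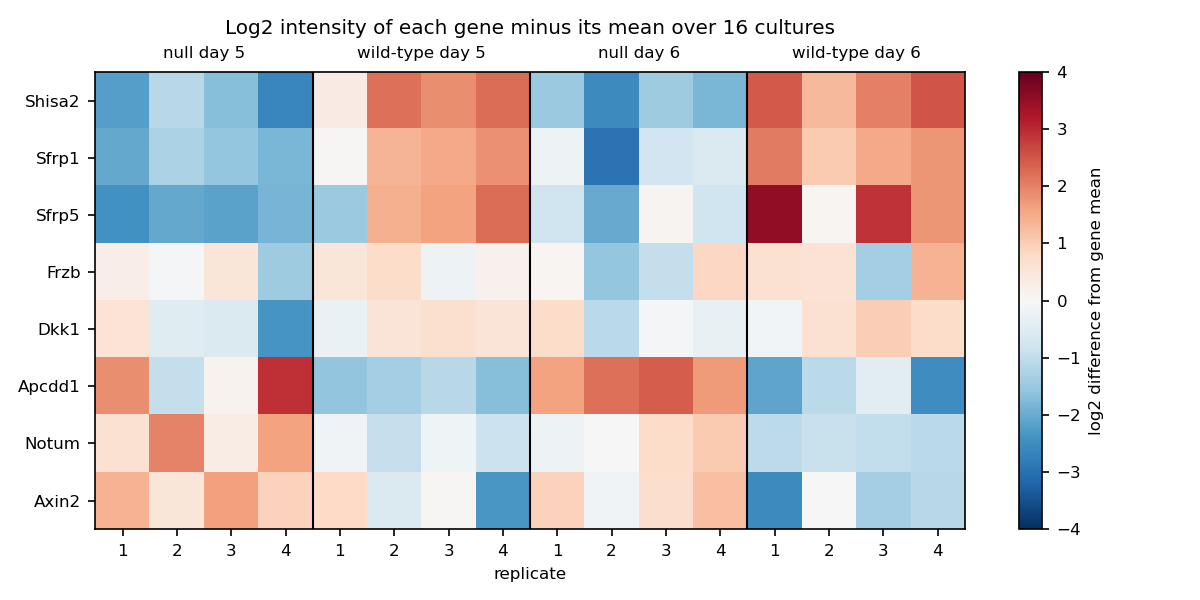
Log2 intensity of the 8 tested antagonists in each of the 16 cultures (columns, null left of wild-type at each day), as the difference from the gene's mean over all cultures (red above, blue below). Shisa2, Sfrp1 and Sfrp5 are mostly blue in null and red in wild-type columns, Apcdd1, Notum and Axin2 mostly the reverse, and wild-type day 5 replicate 1 is pale for Shisa2 and Sfrp1.

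Summed endoderm markers, and at day 6 summed mesoderm markers, separated the genotypes as Shisa2, Sfrp1 and Apcdd1 did, although few single markers passed the test. The summed intensity of 10 measured DE markers was 7953 to 28220 in null and 35025 to 52064 in wild-type cultures at day 5, and 9962 to 31325 in null and 39537 to 61258 in wild-type cultures at day 6, with no overlap. Of these 10 genes, 2 were called lower at day 5 (Sox17 and Hhex) and 1 at day 6 (Hhex), and Epcam, also listed, was not above background on any array. The sum was lowest in wild-type day 5 replicate 1 and wild-type day 6 replicate 2 among the wild-type cultures of their days, the same cultures in which Shisa2 and Sfrp1 were lowest. In bulk RNA, fewer cells of a type and less RNA per cell cannot be told apart, and the part of cell composition in the lower Shisa2, Sfrp1 and Sfrp5 was not tested.

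The 9 measured markers of lateral plate and extraembryonic mesoderm summed to 8631 to 28562 in null and 3997 to 13839 in wild-type cultures at day 5, with overlap, and to 18926 to 24751 in null and 5892 to 8751 in wild-type cultures at day 6, without overlap. At day 6, 4 of 9 were called higher (Bmp4, Msx1, Tbx3 and Pdgfra), and at day 5 none was. The log2 fold change was positive for 7 of 9 at day 5 and for 8 of 9 at day 6. Isl1 was negative at both days (-0.78 and -1.60) and Kdr at day 5 (-0.10), and neither was called. Among null cultures at day 5 the sum was highest in replicates 4 and 1 (28562 and 25577), the highest for Apcdd1, and lowest in replicates 2 and 3 (8631 and 9612), the lowest for it. This order did not hold in wild-type cultures at day 5, where replicate 4 had the highest sum (13839) and the lowest Apcdd1 reading (6.99, not above background). At day 6 the highest sum and the highest Apcdd1 shared a culture in wild-type (replicate 3) but not in null cultures (replicates 2 and 3). Msx2 was not above background on any array, Hand1 on only 2 and Hand2 on only 1, so none of them was measured. The part of mesodermal cells in the Apcdd1 result was not tested. Of the visceral endoderm markers Afp, Cubn and Rbp4 were not above background on any array, and 0 of 5 measured were called. Of the primitive streak markers 0 of 6 were called, of the pluripotency markers 0 of 7, and the neural markers Sox1, Pax6, Pax3, Neurog2 and Tubb3 were not above background on any array. Nes, the 1 neural marker measured, had log2 fold changes of 0.42 at day 5 and 0.57 at day 6 and was not called.

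The genes whose profile over the 16 cultures was most like that of an antagonist, by root mean square difference of centred log2 values among 10938 other genes, differed between members. For Shisa2 they were Fzd5 (0.60), an unnamed probe, ILMN_2744927 (0.60), and Cadps2 (0.60), and Sfrp1 ranked 4 at 0.64, with Sfrp5 at rank 27. For Sfrp1 they were Itpr3 (0.40) and the unnamed probes ILMN_1247263 (0.43) and ILMN_2659295 (0.44). For Apcdd1 they were Bmp4 (0.55), Pmp22 (0.55) and the unnamed probe ILMN_1244976 (0.59), with Axin2 at rank 200 and Notum at rank 210. For Axin2 they were Snai1 (0.39), Fzd10 (0.46) and St6galnac4 (0.49), with Notum at rank 102 and Apcdd1 at rank 7529. The difference between Axin2 and Apcdd1 was 1.37 in both rankings. It is not scaled to the spread of each gene, so the rank depends on the gene it is taken from. The 16 points share genotype and day, so the difference between genotypes is itself part of this likeness.

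Other genes of the pathway were read from lists of its parts. Of 12 further secreted antagonists 3 were measured, and 1 was called. Igfbp4, a secreted IGF-binding protein that also inhibits Wnt signaling, averaged 12.64 ± 0.63 in null and 10.15 ± 0.47 in wild-type cultures at day 6 (log2 fold change 2.49 ± 0.57, adjusted p = 0.0434), without overlap, and 12.06 ± 1.23 in null and 10.39 ± 0.95 in wild-type cultures at day 5 (adjusted p = 0.230). Cer1, an antagonist of Nodal and BMP and, in Xenopus, of Wnt, is named after its values were seen. It ranged from 6.37 to 9.39 in null and from 10.05 to 11.80 in wild-type cultures at day 5, and from 5.79 to 10.70 in null and from 10.81 to 12.36 in wild-type cultures at day 6. These did not overlap, with adjusted p of 0.133 and 0.0570. Of 13 further membrane and intracellular inhibitors 7 were measured and 0 called at either day. The brightest were Axin1, the constitutive relative of Axin2, at 11.58 ± 0.12 in null and 11.43 ± 0.30 in wild-type cultures at day 6 (adjusted p = 0.790), and Tpbg, a membrane inhibitor of Wnt signaling, at 10.97 ± 0.42 and 11.36 ± 0.25 in null and wild-type cultures (adjusted p = 0.502).

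Of 12 measured Wnt receptors and coreceptors, 2 were called, Fzd5 and Fzd8, both lower in null cultures at both days. The other 10, Lrp5 and Lrp6 among them, were not called. Fzd5 averaged 10.05 ± 1.34 in null and 14.04 ± 0.97 in wild-type cultures at day 5 (log2 fold change -3.99 ± 0.70, adjusted p = 0.0243), and 10.96 ± 1.28 in null and 14.32 ± 0.52 in wild-type cultures at day 6 (-3.37 ± 0.70, adjusted p = 0.0281). Fzd8 was not above background in any null culture at day 5 and in 1 of 4 at day 6. It was at least 3.76-fold higher in wild-type cultures at day 5 (adjusted p = 0.0154), and its log2 fold change at day 6 was -2.86 ± 0.49 (adjusted p = 0.0128). Neither receptor overlapped between genotypes at either day.

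Wnt ligands and targets gave few calls. All 8 measured Wnt ligands of 19 listed had positive log2 fold changes at both days, with a median of 1.14 at day 5 and 1.34 at day 6, but 0 of 8 were called at either day. The brightest, Wnt5a, averaged 11.53 ± 0.81 in null and 10.08 ± 0.56 in wild-type cultures at day 6 (adjusted p = 0.219), and Wnt3, which is required for primitive streak formation, 9.40 ± 1.34 in null and 7.95 ± 0.79 in wild-type cultures (adjusted p = 0.417). Of 11 measured Wnt/β-catenin targets, 8 were positive at either day, with a median of 0.61 at day 5 and 1.24 at day 6, and 0 were called higher. Ascl2, a transcription factor of intestinal and placental progenitors, was the 1 target called, in the lower direction. It was not above background in any null culture and was at least 1.35-fold higher in wild-type cultures at day 5 (adjusted p = 0.0193) and at least 1.39-fold higher in them at day 6 (0.0258). Of the R-spondins, secreted proteins that enhance Wnt signaling, Rspo1, Rspo2 and Rspo4 were not measured, and Rspo3, listed among the targets, had log2 fold changes of 0.71 at day 5 and 1.24 at day 6 that were not called.

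**Figure D4:**
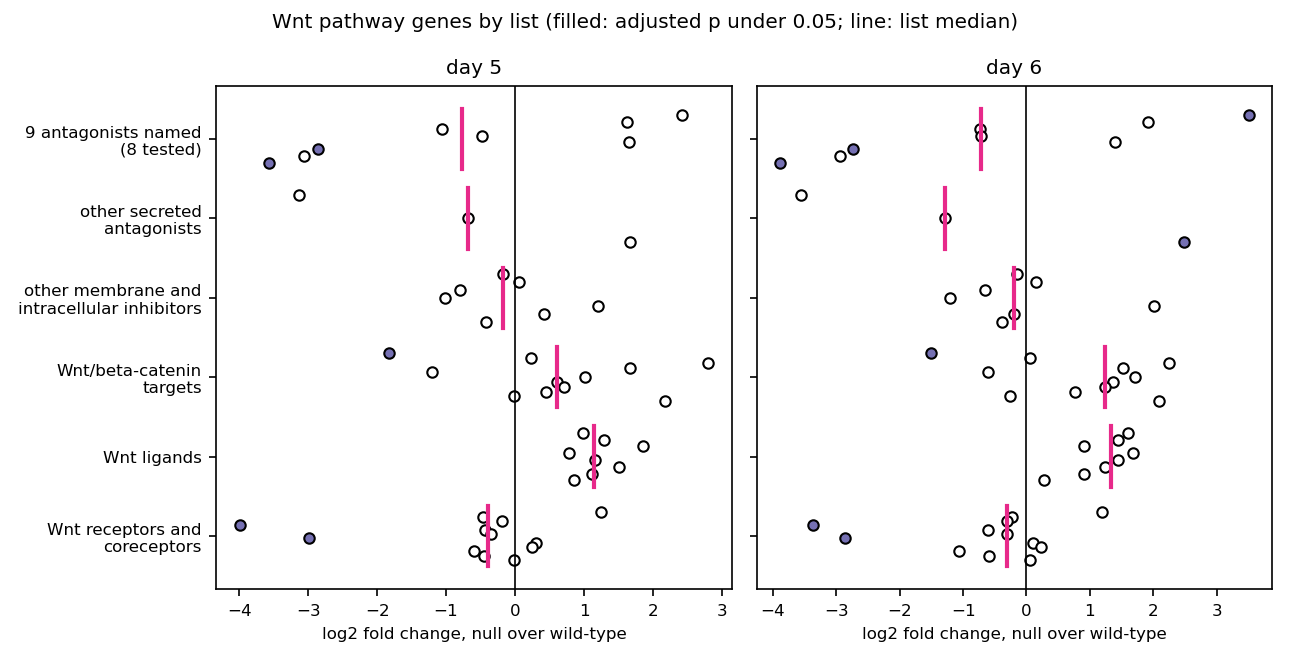
Log2 fold change, null over wild-type (x axis), of each measured gene of 6 Wnt pathway lists (rows) at day 5 (left) and day 6 (right), with filled points for adjusted p under 0.05 over all genes and a line at the list median. The named antagonists lie on both sides of 0, the 8 Wnt ligands all lie to the right with none filled, and Fzd5 and Fzd8 are the filled receptors.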

How the data were processed

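Expression in 16 DE cultures was profiled with BeadChips (Illumina Mouse WG-6 v2). The authors deposited linear intensities per probe, not normalized (119.5 to 43090.3), each with a detection p-value, from GenomeStudio of a version not given in the sources used here. Rank-invariant normalized intensities, also deposited, served only as an alternative. In R 4.3.3 with limma 3.58.1, neqc (offset 16) corrected background by the detection p-values and quantile-normalized to log2 intensities. Of the kept probes (15593), the brightest stood for each symbol, and 1995 of the resulting 10939 genes are probes without a symbol. All 9 members matched RefSeq by Entrez ID under the same symbol.

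A limma model of the 4 group means (lmFit, eBayes) gave all comparisons, with calls at a Benjamini-Hochberg adjusted p under 0.05 over all genes. It stands in for the methods' BeadChip error model. It was also run on simulated data, with an outcome that is not given here. Where a group was below background on all arrays for every probe of a gene, a fold is a lower bound, the brighter group's mean over the mean of, per array, the higher of the dimmest detected probe and the gene's own value. Same-numbered null and wild-type cultures deviated together at day 5 (correlations 0.14 to 0.36, 2 of 4 highest with their own number) but not in every pair at day 6 (-0.044 to 0.44). Replicate 3 also had the fewest probes above background in each group. No label states a pairing, so the model has no block, and blocks by replicate number were run as alternatives.

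The members and gene lists were chosen with earlier results of these data known. Named beside the members were up to 4 called genes of each pathway list or its 2 brightest where none was called, and the 3 closest genes of each called member and Axin2. Alternatives were other background correction, offset, normalization, filters, array weights, replicate blocks, single days, single probes and samples left out.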

Additional observations from a re-analysis of the deposited data

Results flagged for a closer look

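Of 32 groups of 4 cultures examined (8 members by 4 groups), 1 held a culture far from the others by Dixon's test at the 95% level, where chance gives about 1 in 20. Dkk1 read 8.35 in wild-type day 5 replicate 1, against 9.13 to 9.26 in the other 3 wild-type cultures. The gap was 0.855 of the group's range, above the critical value for 4 cultures. The same culture had the lowest Shisa2, Sfrp1 and Sfrp5 of its group.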

How the results depend on the processing

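All log2 fold changes of the 8 tested members kept their direction at both days in every alternative that gave a value, 28 for each member and 27 for Notum, and Shisa2 was called in all 28 at both days. At day 5 the count of called members was 1 (Shisa2) with no filter on dim probes (21 of all genes called). It was 1 with the replicate block over both days (14 of all genes) and 2 with the block within each day (72 of all genes). Leaving out 1 culture gave 1 to 4, the most without wild-type day 5 replicate 1 (Shisa2, Sfrp1, Sfrp5 and Notum), where 178 of all genes were called. At day 6 the count was 6 with array weights, where 1153 of all genes were called, against 172 in the main fit. The weights added Sfrp5, Notum and Axin2 (adjusted p = 0.00757, 0.0201 and 0.00733). Without null day 6 replicates 3 and 4 the count was 1 (Shisa2), where 5 of all genes were called. When leaving out 1 culture it was 1 to 4. The replicate block over both days left 2 (Shisa2 and Sfrp1) at day 6, and the block within each day added Sfrp5 (adjusted p = 0.0423). The cause of these differences was not tested. Counts over all genes ranged from 11 to 178 at day 5 and from 33 to 337 at day 6 when leaving out 1 culture, and from 14 to 77 and from 5 to 1153 under the other settings, against 61 and 172. The interaction and day comparisons called 0 members in every alternative that gave a value. Fold sizes were smaller without background correction and on the deposited rank-invariant intensities, most for Sfrp5, Notum and Apcdd1. Sfrp5, Frzb, Dkk1, Notum and Apcdd1 were below background on some arrays, and Znrf3 on all.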
